A study of Mus musculus with 6 samples.

Results

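The interferon regulatory factors (IRF) are a family of transcription factors, and 8 of their genes, *Irf1*, *Irf2*, *Irf3*, *Irf4*, *Irf5*, *Irf7*, *Irf8* and *Irf9*, were examined in CD4 single-positive (SP) thymocytes of mice lacking the histone H3 lysine 27 demethylases Jmjd3 (*Kdm6b*) and Utx (*Kdm6a*). The genes were taken by symbol from the annotation of the array, and they are 8 of 19752 genes measured. Where a gene had several rows, the row with the highest mean over the 6 arrays was used. Each value is a log2 expression value, so that a difference of 1 is a 2-fold change.

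The arrays compared 3 dKO samples with 3 wild-type samples of mature (Va2hi CD24lo) CD4 SP thymocytes. All mice carried the OT-II T-cell receptor (TCR) transgene, which directs thymocytes to the CD4 lineage. In dKO mice, with the genotype label Jmd3f/f-utxf/f, *Cd4*-Cre deletes floxed exons of both demethylase genes from the CD4+ CD8+ stage of thymocyte development on. Wild-type samples came from Cre-negative mice, which per the methods carried floxed alleles without the recombinase. Per the methods, mice were female unless stated otherwise and 6 to 16 weeks old, while the labels give neither for each array. Whether each replicate was a separate mouse was not given in the sources used here, so the tests reflect sample-to-sample spread, which may be technical.

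IRF proteins share an amino-terminal DNA-binding domain that recognizes GAAA repeats, found in interferon-stimulated response elements (ISRE). IRF3 and IRF7 are activated downstream of nucleic acid sensors and induce type I interferon genes, and IRF9, a partner of STAT2, belongs to the complex that carries the type I interferon signal to the nucleus. IRF1 and IRF2 bind the same elements, largely as activator and repressor. IRF4 is induced by TCR signals in T-cells, where it binds DNA together with BATF and JUN proteins, and IRF8 is best known for its part in dendritic and B-cell development.

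Of the 3 IRF genes called lower in dKO cells (adjusted p under 0.05, limma), *Irf8* passed only just, at 0.047. The sequences upstream of these 3 genes are shown so that GAS matches, or the lack of them, can be read in place. That of *Irf2* is added, as the other member with such a match. They come from RefSeq (GRCm38.p6) and run 5′ to 3′ on the + strand up to the base before the transcript start, except for *Irf2*, where a shorter stretch around its GAS match is shown, which leaves out its other matches given below. Capitals mark letters that match GAS (the gamma-activated site, an element bound by STAT dimers), searched as TTCNNNGAA, which reads the same on both strands.
Irf4, chr13:30748983-30749232: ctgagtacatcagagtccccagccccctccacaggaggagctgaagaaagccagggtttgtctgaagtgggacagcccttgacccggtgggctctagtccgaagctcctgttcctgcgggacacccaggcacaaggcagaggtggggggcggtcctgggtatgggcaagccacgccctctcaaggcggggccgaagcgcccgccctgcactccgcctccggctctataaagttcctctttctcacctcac
Irf1, chr11:53769764-53770013: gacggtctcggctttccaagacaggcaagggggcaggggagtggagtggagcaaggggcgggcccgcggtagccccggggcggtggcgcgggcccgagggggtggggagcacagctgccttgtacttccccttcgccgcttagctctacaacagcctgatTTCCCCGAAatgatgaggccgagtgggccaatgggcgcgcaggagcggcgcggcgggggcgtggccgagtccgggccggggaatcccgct
Irf8, chr8:120736108-120736357: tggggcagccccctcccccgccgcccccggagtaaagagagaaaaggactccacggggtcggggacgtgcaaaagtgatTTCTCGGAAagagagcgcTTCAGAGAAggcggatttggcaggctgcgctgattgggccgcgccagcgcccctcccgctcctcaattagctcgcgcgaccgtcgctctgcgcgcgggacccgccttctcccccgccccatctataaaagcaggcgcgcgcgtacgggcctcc
Irf2, chr8:46739516-46739595: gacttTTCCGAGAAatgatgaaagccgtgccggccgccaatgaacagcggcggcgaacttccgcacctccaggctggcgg

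A window of 250 bases before to 50 bases after the transcript start was searched for each RefSeq promoter, 11 windows for the 8 genes. *Irf1* had a GAS match, TTCCCCGAA, 90 bases before its start. *Irf8* had 2 matches, TTCTCGGAA at 171 and TTCAGAGAA at 153 bases before its start, and *Irf2* had TTCCGAGAA at 224 bases before its start. A GAS match was present in 8.3% of all 32851 promoter windows of this length. The ISRE core, searched on both strands as GAAA, any 2 bases and GAAA, was found in *Irf2* alone among the 8 genes (GAAAATGAAA, 241 bases before the start), against 3.44% of all windows. The composite element bound by ETS and IRF proteins together (EICE), searched on both strands as GGAA, any 2 bases and GAAA, also matched in *Irf2* alone (GGAAGTGAAA, 247 bases before the start, overlapping the ISRE match), against 2.72% of all windows. None of the 3 motifs matched in the windows of *Irf3*, *Irf4*, *Irf5*, *Irf7* or *Irf9*. For *Irf5* and *Irf7*, the window was set at a later start than the first annotated start of the gene. The 250 bases before that first start were therefore not fully searched in *Irf5* and *Irf7*. CpG dinucleotides numbered 11 in the *Irf4* window, 32 in the window at the first start of *Irf1* and 38 in that of *Irf8*, against a median of 7 over all windows (quartiles 3 and 20).

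Arrays of a genotype correlated at 0.998 to 0.999 over all genes, and arrays of different genotypes at 0.991 to 0.993. *Kdm6a* was lower in dKO cells on every array (9.40 to 9.58 in dKO, against 10.11 to 10.20 in wild-type), whereas *Kdm6b* had values of 9.71 to 9.86 in dKO and 9.83 to 9.97 in wild-type cells. These values summarize probes along the whole transcript and do not isolate the deleted exons. The mean of 11 T-cell markers lay between 11.71 and 11.72 in dKO and between 11.67 and 11.76 in wild-type arrays. Of these markers, 2 fell and 1 rose at an adjusted p under 0.05 (limma), against 10.0% lower and 13.1% higher among all genes. Of 9 B-cell markers, 8 were below the median of all genes (6.27 to 6.33) on all 6 arrays, and so were 10 of 14 markers of myeloid and dendritic cells. The mean of 7 markers of natural killer T and innate-like T-cells was 6.24 to 6.33 in dKO and 6.50 to 6.59 in wild-type arrays. Of these 7, 3 fell, against 10.0% of all genes, and 4 were below the median of all genes on all 6 arrays. The mean of 8 markers of CD4+ CD8+ thymocytes was 7.11 to 7.36 in dKO and 6.93 to 7.13 in wild-type arrays. Of these 8, 2 fell and 2 rose, against 10.0% and 13.1% of all genes, and 3 were below that median on all 6 arrays. The part of these populations in the IRF values was not tested.

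Of the 8 IRF genes, *Irf4*, *Irf1* and *Irf8* fell in dKO relative to wild-type cells at an adjusted p under 0.05 (limma, adjusted over all genes), and no member rose. Among all genes, 23.1% passed this threshold, 10.0% with a lower and 13.1% with a higher value in dKO cells. These shares were larger among bright genes. The brightest 50% of genes, which hold all members but *Irf5*, had 1887 lower and 2634 higher when fitted alone. Over all genes, 1976 were lower and 2587 higher. *Irf4* was the member that fell by more than 2-fold, as did 0.582% of all genes. The genotypes did not overlap for *Irf4* and *Irf1*, 2 of the 8 members, against 37.7% of all genes (16.5% with lower dKO values). The median log2 fold change of the 8 members was -0.05, and that of all genes was 0.01.

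**Figure D1:**
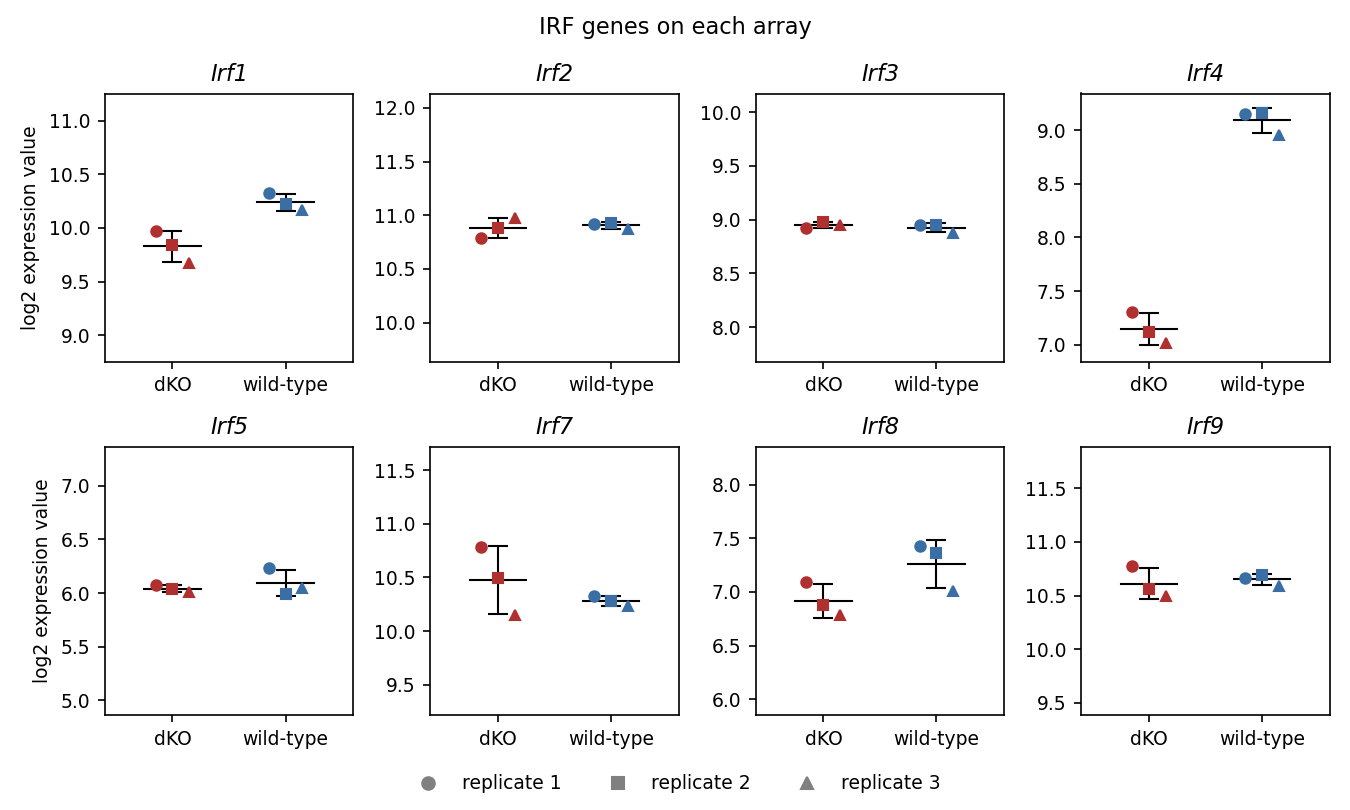
Log2 expression value of each IRF gene on each array, with dKO on the left and wild-type on the right of each panel. Symbols mark the replicate number, long lines the mean and short bars 1 SD (n = 3 arrays each), and every panel spans the same range of log2 units. The dKO and wild-type arrays stood apart most in the *Irf4* panel, where dKO values were 7.02 to 7.31 and wild-type values 8.95 to 9.16.

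*Irf4*, the family member induced by TCR signals, showed the largest difference between genotypes in the family. Its log2 values were 7.31, 7.12 and 7.02 on the dKO arrays, against 9.15, 9.16 and 8.95 on the wild-type arrays. All dKO values were well below all wild-type values. The means were 7.15 ± 0.15 in dKO and 9.09 ± 0.12 in wild-type cells (SD, n = 3 each), a log2 fold change of -1.94 (standard error 0.08, 95% interval -2.12 to -1.76, adjusted p = 3.07e-07 from limma). This is 3.84-fold lower, so that dKO cells kept 26.0% of the wild-type level, and the decrease ranked 20 among the 1976 genes that were lower. In bulk samples such as these, fewer cells expressing a gene and less RNA per cell cannot be told apart.

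Markers of regulatory T-cells, a population in which *Irf4* is known to be expressed, moved in the same direction. All 10 measured markers were lower in dKO cells, against 10.0% of all genes, with a median log2 fold change of -0.90. Their mean value was 7.45 to 7.60 on dKO arrays and 8.34 to 8.36 on wild-type arrays. *Foxp3*, the lineage factor of these cells, fell by 0.89 log2 units (adjusted p = 1.56e-06, limma), and *Tnfrsf18*, which encodes the surface receptor GITR, by 1.29 (adjusted p = 3.87e-07, limma). Their part in the *Irf4* difference was not tested. Among B-cell markers, *Cd79b* was lower (log2 fold change -0.63, adjusted p = 1.19e-05, limma), while the 8 others, all below the median of genes, did not pass the test.

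The genes whose pattern over the 6 arrays was most like that of *Irf4* were taken by Euclidean distance between log2 values centred on each gene's mean. They were *Lypd6b* (distance 0.171), *Sidt1* (0.215), *Samhd1* (0.269), *Atp8b4* (0.297) and *Tlr1* (0.350). *Lypd6b*, which encodes a member of the LY6/PLAUR family, had log2 values of 6.46, 6.33 and 6.33 on dKO arrays, against 8.35, 8.37 and 8.31 on wild-type arrays. *Samhd1*, which encodes a dNTP hydrolase that restricts retroviruses, had 9.39, 9.14 and 9.16 on dKO arrays, against 11.52, 11.37 and 11.13 on wild-type arrays. The log2 fold changes of the 5 genes lay between -1.85 for *Tlr1* and -2.11 for *Samhd1*, around the -1.94 of *Irf4*. This closeness follows from the choice by distance, which includes the difference between genotypes.

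*Irf1*, an interferon-induced activator of antigen presentation genes, was lower by a smaller amount. Its log2 values were 9.97, 9.84 and 9.68 on dKO arrays, against 10.33, 10.22 and 10.16 on wild-type arrays. The groups did not overlap, although the nearest values (9.97 in dKO and 10.16 in wild-type) were close. The means were 9.83 ± 0.15 in dKO and 10.24 ± 0.08 in wild-type cells (SD, n = 3 each), a log2 fold change of -0.41 (95% interval -0.58 to -0.24, adjusted p = 0.00316 from limma), so that dKO cells kept 75.3% of the wild-type level. The gene had a second, dimmer row, with 6.93, 6.77 and 6.66 in dKO and 7.15, 7.01 and 6.92 in wild-type cells, where the groups overlapped and the log2 fold change of -0.24 did not pass the threshold (adjusted p = 0.062, limma over all rows). *Irf1* missed the threshold when each gene's variance was taken from that gene alone, and when tested against a fold of 1.5.

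*Irf8*, best known from myeloid and B-cells, had log2 values of 7.09, 6.88 and 6.78 on dKO arrays, against 7.42, 7.36 and 7.01 on wild-type arrays. The groups overlapped, since dKO replicate 1 was above wild-type replicate 3. The means were 6.92 ± 0.16 in dKO and 7.26 ± 0.22 in wild-type cells (SD, n = 3 each), and the log2 fold change of -0.35 (95% interval -0.59 to -0.10) only just passed the threshold (adjusted p = 0.047, limma). The call was lost without dKO replicate 2 (adjusted p = 0.135), dKO replicate 3 (0.157), wild-type replicate 1 (0.146) or wild-type replicate 2 (0.151), and it was kept without dKO replicate 1 (0.0291) or wild-type replicate 3 (0.00411), all from limma.

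Of the markers of myeloid and dendritic cells, in which *Irf8* is highly expressed, 2 of 14 fell, 1 rose and 11 missed the threshold. Over all genes, 10.0% were lower and 13.1% higher. The mean value of the 14 markers was 5.53 to 5.74 in dKO and 5.56 to 5.67 in wild-type arrays. *Itgam*, which encodes the integrin CD11b, was lower (log2 fold change -0.78, adjusted p = 6.78e-05, limma). Its values were 5.23, 5.51 and 5.20 in dKO and 6.08, 6.11 and 6.09 in wild-type cells, below the median of all genes on every array. *Lyz2*, the lysozyme of macrophages and granulocytes, was higher, with 6.75, 6.02 and 5.48 in dKO and 5.35, 5.43 and 5.03 in wild-type cells. This increase of 0.81 (adjusted p = 0.0429, limma) missed the threshold, at 0.0669 to 0.126, without any array but dKO replicate 3. The part of these cells in the *Irf8* difference was not tested.

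**Figure D2:**
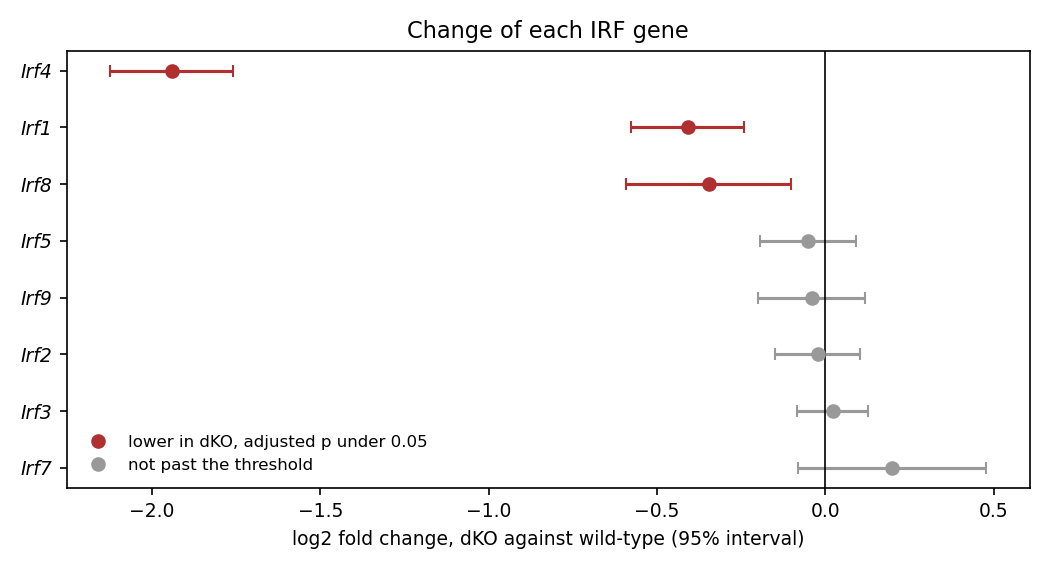
Log2 fold change of dKO against wild-type cells for each IRF gene (points) with its 95% interval from limma (bars), sorted from the most negative to the most positive. Red marks an adjusted p under 0.05 over all genes and grey the others. The interval of *Irf4* lay between -2.12 and -1.76, apart from those of all other members.

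The other 5 members did not pass the test. *Irf2*, which competes with *Irf1* for the same sites, had values of 10.79, 10.88 and 10.98 in dKO and 10.92, 10.92 and 10.87 in wild-type cells, and the 95% interval of its log2 fold change was -0.15 to 0.10. *Irf3*, expressed in most cell types and activated by phosphorylation, had 8.92, 8.97 and 8.95 in dKO and 8.95, 8.95 and 8.88 in wild-type cells, with an interval of -0.08 to 0.13. Neither interval reached beyond 0.15 log2 units in either direction. These intervals reflect the spread between arrays and not the choice of normalization. *Irf5*, which acts downstream of Toll-like receptors in myeloid cells, had 6.07, 6.04 and 6.01 in dKO and 6.23, 5.99 and 6.05 in wild-type cells, below the median of all genes on every array. Its interval was -0.19 to 0.09, and at such low signal a difference would be compressed.

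*Irf9*, the DNA-binding subunit of the type I interferon complex, had 10.77, 10.56 and 10.50 in dKO and 10.66, 10.70 and 10.59 in wild-type cells. The groups overlapped, and the log2 fold change was -0.04 (95% interval -0.20 to 0.12, adjusted p = 0.757, limma). *Irf7*, which is itself strongly induced by interferon, had 10.78, 10.50 and 10.15 in dKO and 10.32, 10.28 and 10.23 in wild-type cells. The dKO arrays spread on both sides of the wild-type arrays, with means of 10.48 ± 0.31 in dKO and 10.28 ± 0.05 in wild-type cells (SD, n = 3 each), and the log2 fold change was 0.20 (95% interval -0.08 to 0.48, adjusted p = 0.32, limma). Without dKO replicate 3, *Irf7* was called higher at 0.36 (adjusted p = 0.0161, limma), and without dKO replicate 1 its log2 fold change was 0.05 (adjusted p = 0.806, limma).

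The order of the dKO arrays seen for *Irf7* recurred for most members. Replicate 1 was the highest dKO array for 6 of 8 members, against 31.0% of all genes, and replicate 3 the lowest for 6 of 8, against 30.5%. Among 29 interferon-stimulated genes (ISG), dKO replicate 1 was highest for 27 and dKO replicate 3 lowest for 22. Among wild-type arrays, replicate 3 was the lowest for 7 of 8 members, against 35.6% of all genes, and for 21 of 29 ISG. Replicates 1 and 2 were each the highest wild-type array for 4 of 8 members, against 34.2% and 28.5% of all genes. For the 29 ISG, wild-type replicate 1 was highest for 18 and wild-type replicate 2 for 7. The ISG mean was 9.25, 8.99 and 8.85 on dKO arrays, against 9.34, 9.30 and 9.25 on wild-type arrays. The mean of dKO replicate 1 thus reached the lowest wild-type value, and the dKO arrays spread further than the wild-type ones. *Cd74*, a marker of antigen-presenting cells, fell from replicate 1 to replicate 3, with 7.73, 7.04 and 6.36 in dKO and 6.83, 6.62 and 6.22 in wild-type cells. *Lyz2* did so on the dKO arrays only, since its value was 5.35 on wild-type replicate 1 and 5.43 on wild-type replicate 2. Both belong to the 14 markers of myeloid and dendritic cells, whose mean was 5.74, 5.65 and 5.53 on dKO arrays. On wild-type arrays that mean was 5.59, 5.67 and 5.56. Other markers of the list went up from dKO replicate 1 to 3, such as *Csf1r*, with 5.37, 5.46 and 5.53, below the median of all genes. The part of *Cd74* and *Lyz2* in this order was not tested.

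**Figure D3:**
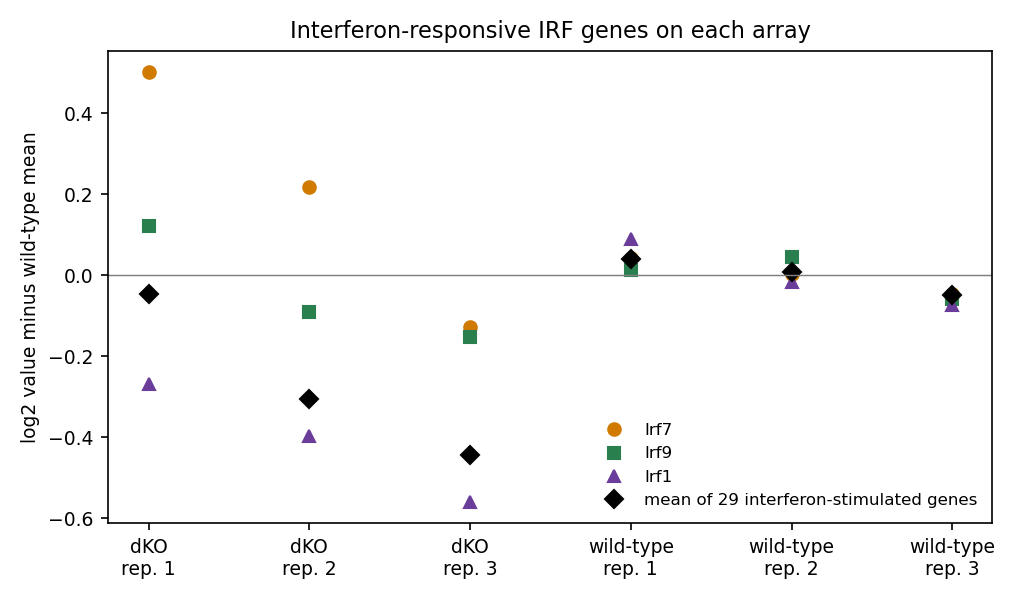
Log2 value minus the wild-type mean on each array for *Irf7* (circles), *Irf9* (squares), *Irf1* (triangles) and the mean of 29 interferon-stimulated genes (diamonds), with dKO arrays on the left. The dKO arrays spread further than the wild-type arrays for each of the 4 quantities, with dKO replicate 1 highest and dKO replicate 3 lowest.

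The genes around the IRF family were then described by role. Beside the counts of each list stand the shares over all genes, 10.0% lower and 13.1% higher, which were larger among bright genes. Outside the family, 50 genes other than *Psme2* are named here and were called. Taking each gene's variance from that gene alone ended the calls of 19 of these 50, and testing against a fold of 1.5 ended 41. The description begins with the interferons, whose genes IRF3 and IRF7 induce. All 5 measured interferon genes, *Ifnb1* and *Ifng* among them, failed to pass the test, with a median log2 fold change of -0.02. *Ifnb1* had 5.13, 5.11 and 5.33 in dKO and 5.21, 5.11 and 5.31 in wild-type cells, and *Ifng* had 5.34, 5.33 and 5.41 in dKO and 5.33, 5.39 and 5.32 in wild-type cells. Both were below the median of all genes on every array.

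Of the 6 interferon receptor chains, 5 were lower in dKO cells, with a median log2 fold change of -0.31 over the list. *Ifngr1*, the ligand-binding chain of the type II interferon receptor, had 10.06, 9.96 and 9.99 in dKO and 10.70, 10.83 and 10.78 in wild-type cells, a log2 fold change of -0.77 (adjusted p = 6.64e-06, limma). *Ifnar1*, a chain of the type I receptor, had 9.66, 9.74 and 9.72 in dKO and 10.20, 10.14 and 10.25 in wild-type cells (log2 fold change -0.49, adjusted p = 7.22e-05, limma). No dKO array reached a wild-type array for either chain. *Il10rb*, shared by the type III receptor, and *Ifnar2*, the other type I chain, had log2 fold changes of -0.32 and -0.29 (adjusted p = 0.000724 and 0.00531, limma). *Ifngr2* was lower by 0.19 (adjusted p = 0.0451, limma), a call that was lost, at 0.0579 to 0.144, without any array but dKO replicate 1. *Ifnlr1*, the specific chain of the type III receptor, did not pass the test (log2 fold change -0.05).

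Downstream of the receptors, 2 of the 5 measured JAK and STAT genes were lower. *Stat2*, the partner of IRF9, had 9.03, 8.99 and 8.95 in dKO and 9.31, 9.23 and 9.14 in wild-type cells (log2 fold change -0.23, adjusted p = 0.0127, limma). *Tyk2*, the kinase bound to the type I receptor, fell by 0.20 log2 units (adjusted p = 0.0295, limma), which missed the threshold, at 0.0509 to 0.101, without dKO replicate 2 or any wild-type array. Neither call held when each gene's variance was taken from that gene alone. *Jak1*, *Jak2* and *Stat3* had log2 fold changes of -0.01, 0.00 and -0.03.

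Among 17 upstream activators of IRF3, IRF5 and IRF7, 6 fell, 1 rose and 10 did not pass, and the median log2 fold change was -0.05. *Tlr7*, an endosomal receptor for single-stranded RNA, had 7.69, 7.49 and 7.46 in dKO and 8.51, 8.51 and 8.75 in wild-type cells, a log2 fold change of -1.05 (adjusted p = 1.55e-05, limma). *Sting1*, the adaptor of cytosolic DNA sensing, had 10.52, 10.52 and 10.63 in dKO and 11.16, 11.16 and 11.15 in wild-type cells. *Zbp1*, a sensor of Z-form nucleic acids that is also an ISG, fell by 0.81 log2 units (adjusted p = 0.000601, limma). Both kinases that phosphorylate IRF3 and IRF7 were lower, *Ikbke* by 0.67 (adjusted p = 9.66e-06) and *Tbk1* by 0.26 (adjusted p = 0.0123, both limma). *Myd88*, the adaptor through which TLR7 signals to IRF5 and IRF7, fell by 0.25 log2 units (adjusted p = 0.00446, limma). *Tlr3* was higher by 0.20 (adjusted p = 0.0429, limma) at values of 4.76 to 4.99 in dKO and 4.66 to 4.73 in wild-type cells, near or below the first quartile of all rows (4.97 to 5.01), and without any array but dKO replicate 3 it missed the threshold.

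Of 17 genes for DNA-binding partners of IRF proteins, 4 fell, 3 rose and 10 missed the threshold, and the median log2 fold change was -0.06. *Bcl6*, a transcriptional repressor required for follicular helper T-cells and germinal centre B-cells, had 8.50, 8.46 and 8.56 in dKO and 7.55, 7.78 and 7.90 in wild-type cells, a log2 fold change of 0.77 (adjusted p = 9.77e-05, limma). *Jun* and *Rela* were also higher, by 0.25 and 0.20 (adjusted p = 0.0111 and 0.00909, limma). *Ikzf3*, a lymphoid zinc finger factor, *Rel* and *Nfatc1*, both effectors of TCR signalling, and *Stat2* were lower, with log2 fold changes of -0.50, -0.41, -0.29 and -0.23. *Batf*, the partner of IRF4 in T-cells, had 7.61, 7.61 and 7.65 in dKO and 7.76, 7.76 and 7.74 in wild-type cells. These groups did not overlap, but the log2 fold change of -0.13 did not pass the threshold (adjusted p = 0.0655, limma), which it passed after another round of quantile normalization (0.0169) or after cyclic loess normalization (0.0167).

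Negative regulators went in both directions, with 2 of 12 lower, 3 higher and a median log2 fold change of 0.04. *Socs1* and *Socs3*, cytokine-induced inhibitors of JAK kinases, were lower, by 0.55 and 0.35 log2 units (adjusted p = 2.14e-05 and 0.00836, limma). The 3 that were higher encode the IRF2-binding proteins, which act as co-repressors. *Irf2bp1* had 9.15, 9.14 and 9.20 in dKO and 8.78, 8.82 and 8.85 in wild-type cells (log2 fold change 0.35, adjusted p = 0.000463, limma), and *Irf2bpl* had 9.06, 9.24 and 8.94 in dKO and 8.60, 8.86 and 8.72 in wild-type cells (0.36, adjusted p = 0.0128, limma). *Irf2bp2* was higher by 0.17 (adjusted p = 0.0304, limma), and this call was lost, at 0.053 to 0.101, without dKO replicate 1 or 2 or wild-type replicate 1 or 2.

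Of the 29 ISG, 14 fell in dKO cells, 1 rose and 14 missed the threshold, with a median log2 fold change of -0.22. *Oas3* and *Oas2*, which encode 2′-5′-oligoadenylate synthetases, had log2 fold changes of -1.09 and -0.92 (adjusted p = 0.000233 and 0.000334, limma). *Oas3* had 7.81, 7.45 and 7.20 in dKO and 8.63, 8.65 and 8.44 in wild-type cells. *Mx2*, an antiviral GTPase, was lower by 0.78 (adjusted p = 0.000105, limma). Its values, 5.64, 5.50 and 5.33 in dKO and 6.39, 6.22 and 6.20 in wild-type cells, were near or below the median of all genes. *Oasl1*, an OAS-like protein known in mice to restrain *Irf7* translation, was the gene that was higher, with 9.21, 9.14 and 9.06 in dKO and 8.88, 8.76 and 8.56 in wild-type cells (log2 fold change 0.41, adjusted p = 0.00404, limma). The number of lower ISG depended on the arrays, being 20 without dKO replicate 1, 9 without dKO replicate 2, 8 without dKO replicate 3, 9 without wild-type replicate 1, 7 without wild-type replicate 2 and 12 without wild-type replicate 3. With each gene's variance taken from that gene alone, 4 were lower and 0 higher, the call of *Oasl1* being lost, and against a fold of 1.5 there were 0 in either direction.

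Among 22 measured genes listed as IRF1 targets, 6 fell, 1 rose and 15 missed the threshold, and the median log2 fold change was -0.11. *Nlrc5*, the transactivator of MHC class I genes, had 10.22, 10.17 and 10.06 in dKO and 11.12, 11.03 and 10.81 in wild-type cells, a log2 fold change of -0.84 (adjusted p = 5.04e-05, limma). *Gbp4*, a guanylate-binding protein gene, was lower by 0.48 (adjusted p = 0.00101, limma), and *Socs1* is also on this list. *Icam1*, an adhesion molecule gene, was higher by 0.43 (adjusted p = 0.00256, limma). The transporter and immunoproteasome genes *Tap1*, *Psmb8*, *Psmb9* and *Psmb10* did not pass the test, with log2 fold changes of -0.13, 0.05, -0.04 and 0.05. *Psme2*, on the same list, was among those that fell, with a log2 fold change of -0.24 (adjusted p = 0.00399, limma). *Psme1* did not pass (-0.10).

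Among 14 measured genes linked to IRF4 in activated and regulatory T-cells, 5 fell, 3 rose and 6 missed the threshold, and the median log2 fold change was -0.02. *Ccr8*, a chemokine receptor gene, had 7.40, 6.92 and 6.60 in dKO and 8.34, 8.47 and 8.82 in wild-type cells, a log2 fold change of -1.57 (adjusted p = 0.000179, limma). *Ctla4*, an inhibitory receptor that also counts among the regulatory T-cell markers, was lower by 0.91 (adjusted p = 2.45e-05, limma). *Maf*, *Icos* and *Gata3* had log2 fold changes of -0.61, -0.41 and -0.24. *Slc2a1*, which encodes a glucose transporter, *Hif1a* and *Prdm1*, which encodes Blimp-1, were higher, by 0.28, 0.27 and 0.30. All 10 regulatory T-cell markers given beside *Irf4* were lower, whereas the genes of this list went in both directions. The part of regulatory T-cells in the values of this list was not tested.

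**Figure D4:**
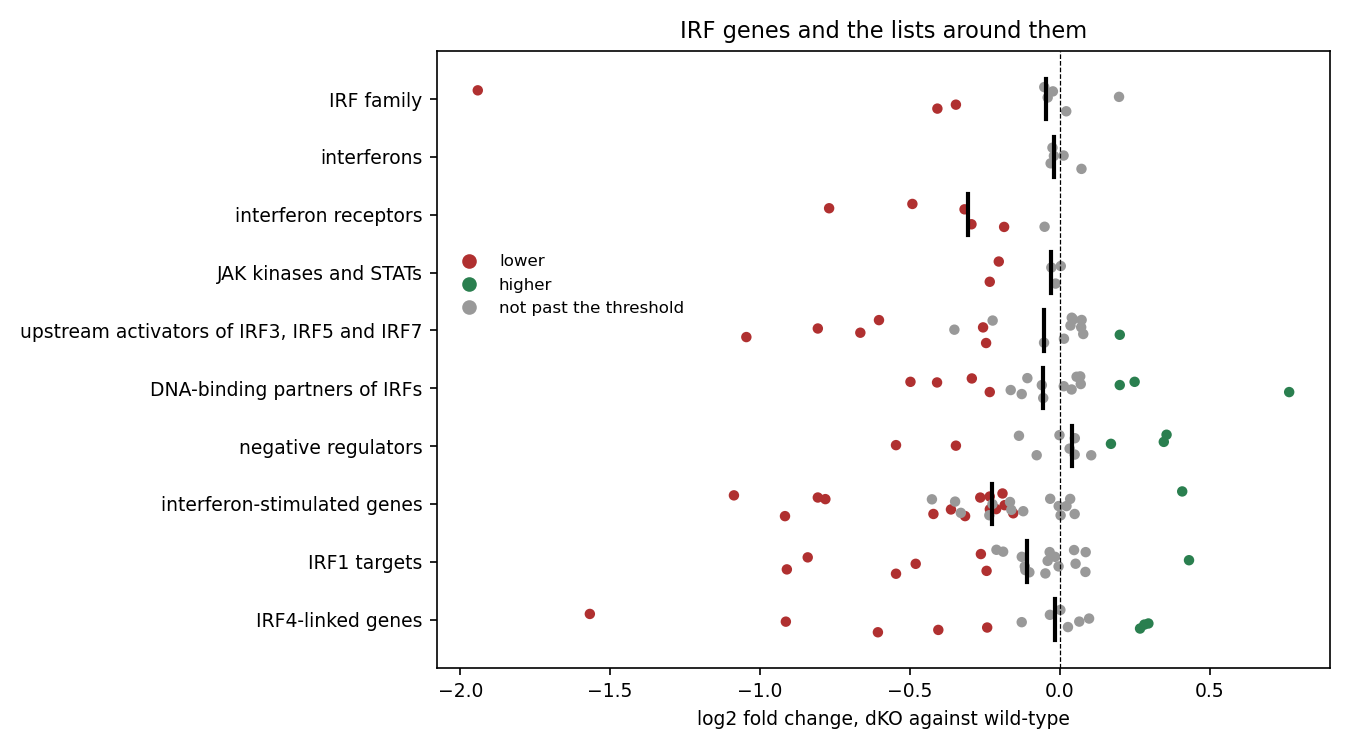
Log2 fold change of dKO against wild-type cells (horizontal axis) for each measured gene of the IRF family and of the lists around it, 1 list a row, with the median as a black bar. Red genes were lower and green genes higher at an adjusted p under 0.05 over all genes (limma), and grey genes did not pass. The interferon receptors had the lowest median, -0.31, and 5 of 6 were lower.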

How the data were processed

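The authors hybridized RNA of sorted mature CD4 SP thymocytes to Affymetrix arrays (Mouse Gene 1.0 ST in the methods, Mouse Exon 1.0 ST in the design text). The deposited log2 values, 1 column per array, were made by the authors with Partek and RMA, per the submitters' processing notes, with versions not given in the sources used here. RMA gives all arrays 1 distribution, which hides a change common to most genes, and differences of dim genes are compressed. Of 25254 rows, 21496 had 1 symbol, giving 19752 genes after the brightest row was kept for each of 938 genes with several rows. The values were tested as deposited with limma 3.58.1 (R 4.3.3), with genotype as the only term and Benjamini-Hochberg adjustment over all genes. The code was tested on simulated data. The depth of an array is not a count, and 3 arrays per genotype limit the precision.

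The members and lists were chosen with earlier results of these data known. Named genes are all members, up to 4 genes of each list with the smallest p, and the 5 genes nearest to *Irf4*. *Ifngr2*, *Ifnlr1*, *Jak1*, *Jak2*, *Stat3*, *Myd88*, *Tbk1*, *Tlr3*, *Jun*, *Rela*, *Stat2* as a partner, *Batf*, *Irf2bp2*, *Oasl1*, *Tap1*, *Psmb8*, *Psmb9*, *Psmb10*, *Psme1*, *Psme2*, *Icos*, *Gata3*, *Hif1a*, *Prdm1*, *Ifnb1*, *Ifng* and the markers given singly were picked with their values in view. Alternatives were renormalization (quantile, cyclic loess), the brightest 75% or 50% of genes, the mean of a gene's rows, all rows, robust variances with an intensity trend, Student's t-test, a test against a fold of 1.5, the replicate number as a block, and each array left out. Genes of the lists without a row used here were not analysed here. Promoters came from RefSeq (GRCm38.p6). Figures were drawn with matplotlib 3.10.9.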

Additional observations from a re-analysis of the deposited data

How the results depend on the processing

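*Irf4* stayed lower in dKO cells and past the threshold in all 16 alternatives (log2 fold change -2.02 to -1.88). *Irf1* was lower in all 16 (-0.48 to -0.32), and it missed the threshold with Student's t-test (-0.41, adjusted to 0.0765 over all genes) and against a fold of 1.5 (-0.41, adjusted p = 1.0, limma). *Irf8* missed it over all rows (-0.35, adjusted p = 0.0573, limma), with Student's t-test (-0.35, adjusted to 0.256) and against a fold of 1.5 (-0.35, adjusted p = 1.0, limma). Without 1 array, its log2 fold change was -0.4749 to -0.2667, and that of *Irf7* was 0.0456 to 0.3599. Among members that did not pass the test, the sign turned for *Irf2* after quantile normalization (0.0022) and for *Irf3* after quantile (-0.0139) and cyclic loess normalization (-0.024). Without 1 array, the log2 fold change was -0.0711 to 0.0239 for *Irf2*, -0.0039 to 0.0364 for *Irf3*, -0.1 to 0.0175 for *Irf5* and -0.1218 to 0.0153 for *Irf9*. *Irf5* was not among the brightest 50% of genes.

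Student's t-test called 1 member lower, and 1173 genes lower and 1392 higher. The test against a fold of 1.5 called 1 member lower, and 141 genes lower and 63 higher. Without 1 array, 0 to 1 members were called higher. Against 1976 lower and 2587 higher genes as deposited, cyclic loess normalization called 2328 lower and 2222 higher, with 3 members lower and 0 higher. The median log2 fold change of all genes was 0.0057 as deposited, 0.0043 after quantile and -0.0014 after cyclic loess normalization.

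The replicate number as a block left 1970 genes lower and 2574 higher and changed no call of a member, with 3 lower and 0 higher. Deviations of arrays with the same number correlated at 0.099, 0.024 and 0.07, and those of the other pairs at -0.098 to 0.04. dKO replicate 2 correlated more with wild-type replicate 3 (0.04) than with wild-type replicate 2 (0.024). Correlations this small do not settle whether the numbers pair the arrays. The means of the IRF family and of the ISG had the same replicate order in both genotypes. The block lowered the adjusted p of *Irf8* to 0.00427 (limma), against 0.047 without it. Of 50 genes outside the family, other than *Psme2*, that are named and were called, Student's t-test ended 19 calls. It made 1 call, of *Batf*, and the test against a fold of 1.5 ended 41 calls. With Student's t-test, 4 ISG were lower and 0 higher, 3 interferon receptors and 0 JAK and STAT genes were lower. Quantile normalization ended the call of *Ifngr2* (adjusted p = 0.128, limma) and made that of *Batf*, as did cyclic loess normalization, which ended that of *Irf2bp2* (0.0827). For the genes of the lists, the block ended the call of *Ifngr2* (adjusted p = 0.0614, limma) and made one of *Cd74* (0.022). The causes of these changes were not tested. A change of dim genes such as *Irf5* is limited by their signal.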
